A study of Arabidopsis thaliana with 51 samples.

Results

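The CHH cytosines described here lie in a segment of 1226 bp, from 10381576 to 10382801 in TAIR10, next to the AG locus of Arabidopsis thaliana. CHH is a cytosine followed by a base other than G and then by another base other than G. All cytosines of the bisulfite table in this context and this range were taken, 304 of its 5709 cytosines and of its 4378 CHH sites. Of these, 3 shared a coordinate with another entry and 23, between 10382325 and 10382434, could not be placed in all columns. The remaining 278 were analysed, 169 on the plus strand, 106 on the minus strand and 3 of unknown strand. The sites were chosen by position, and the upper end of the segment was selected on the methylation of windows in the library Col AGp//AGe sMf, so the levels of that library are a description only. Its 3 last sites inside the segment and the 3 beyond it were all at 0, where the AGp Sterile means ranged from 0% to 5% inside and from 0% to 23.5% beyond. The lower end lies inside a methylated stretch, with levels of 33% to 46% at the 3 sites below it and 36% to 55% at the first 3 inside. The 513 analysed cytosines directly below this end, from 10379482 to 10381575, were all listed at 0 in 11 M317 and M318 libraries. Whether that run set the lower end was not determined.

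The table names no chromosome and the labels spell out neither AGp nor AGe. The coordinates were read as lying at AG (locus AT4G18960), a gene of chromosome 4 that encodes a MADS-box transcription factor of stamen and carpel identity. Its annotated neighbours are AT4G18950 and AT4G18970, with AT4G06860, a long noncoding RNA, beside them. Whether the segment is exonic, intronic or intergenic was not determined here. In plants, RNA-directed DNA methylation (RdDM) uses small interfering RNAs to guide the methyltransferase DRM2 to matching DNA. Methylation in the CHH context has no symmetrical partner on the other strand, so it has to be set anew after each replication, by DRM2 or by CMT2. CHH levels are therefore a common readout of where RdDM acts.

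Each library came from young flowers pooled from 5 to 10 transformed or untransformed lines of a single flower phenotype, labelled Wt, sMf, rMf or Sterile, and the labels do not say whether pools shared lines. The series title spells ARE as an anti-RdDM element, and the labels explain neither UF2, UF4, Ctr, M317 and M318 nor the phenotype codes. AGp was carried by 2 Col libraries with Sterile flowers, and AGp//AGe by a Col sMf and a Col rMf library. UF2//AGe and UF4//AGe had a Col library each, whose titles read sMf while their phenotype fields read rMf, and the phenotype was not used. ARE//AGe was carried by 2 Col libraries with Wt flowers and by 9 libraries of plants with an allele. These were Met1-1, ddm1-1, hdp1-1 and hdp2-1, each with sMf and rMf flowers, and suvh1-2 with sMf flowers. MET1 maintains CpG methylation, DDM1 is a chromatin remodeler, SUVH1 is a reader of DNA methylation that favours transcription. HDP1 and HDP2 act together in active demethylation. The same 5 alleles had a Wt flower library each without construct. A further 14 libraries carried AGe alone (Col, M317 or M318), 4 carried Ctr//AGe (Col, Met1-1 or ddm1-1), and 11 had no construct in Col, M317 or M318. The 28 libraries of set A, 13 of set B and 10 of set C were labelled as such by the submitters. The table holds levels without read counts, so depth is unknown, and reads of a construct were not told apart from reads of the endogenous locus.

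The segment was methylated in every library that carried AGp, in the ARE//AGe libraries of plants with an allele, and at low mean level in 2 others. The mean CHH level was 19.5% and 28.4% in the 2 AGp Sterile libraries, 25.6% in AGp//AGe sMf and 18.3% in AGp//AGe rMf. In the 9 ARE//AGe libraries of plants with an allele it ranged from 9.17% in suvh1-2 sMf to 21.5% in Met1-1 rMf, with a median of 12.5%. These ranges overlapped through Met1-1 rMf, in which 123 of the 278 sites were missing. UF4//AGe stood at 3.61% and suvh1-2 Wt, which has no construct, at 5.03%. UF2//AGe was at 0.144% and the 2 ARE//AGe libraries of Col at 0.478% and 0.265%. These 2 came from Wt flowers and the 9 with an allele from sMf or rMf flowers. Allele and flower phenotype therefore cannot be told apart between them. Over CHH outside the segment and the 1000 bp below it, the 2 stood at 0.684% and 0.980% and the 9 at 5.69% to 7.79%. The 27 libraries of Col, M317 or M318 without AGp, UF or ARE reached from 0.0432% to 2.36%, with a median of 0.345%, and did not overlap with any AGp library. The upper value came from Col Ctr//AGe rMf, in which 39 sites were measured.

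**Figure D1:**
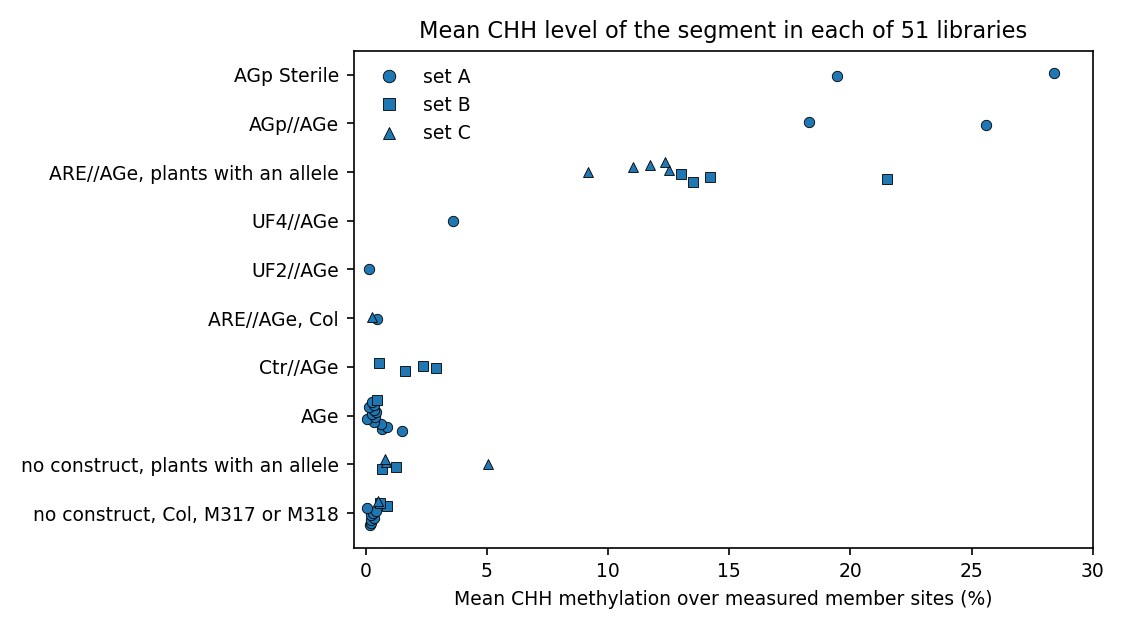
Mean CHH level (%) of the 278 sites, over those measured, in each of the 51 libraries; a marker is a library and its shape the set. The AGp, AGp//AGe and ARE//AGe libraries of plants with an allele sit at 9.17% or above, and suvh1-2 Wt, at 5.03%, is the highest of the others.

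Methylation ran through the segment in 2 separate blocks in the AGp libraries. In windows of 100 bp counted from the first base of the segment, AGp Sterile replicates 1 and 2 started at 33.2% and 35.4%. They fell to 3.28% and 6.33% in the window from 501 to 600 bp, and rose again to 32.4% and 37.9% from 1001 to 1100 bp. The last 26 bp were at 4.71% and 2.29%. The libraries thus shared a dip whose floor lay in the same window, while replicate 2 was the higher of the pair in all windows but the last.

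The AGp//AGe libraries had the same outline. AGp//AGe rMf stood at 36.2% in the first window, at 1.56% from 501 to 600 bp and at 37.8% from 901 to 1000 bp. AGp//AGe sMf stood at 48.1%, 3.33% and 37.1% in these windows. Both strands shared the dip, since from 401 to 600 bp the 26 plus-strand sites of AGp Sterile averaged 3% and 7.73% and the 10 minus-strand sites 5.60% and 16.9%. A 0 in these set A libraries may be an uncovered cytosine. In the 9 ARE//AGe libraries of plants with an allele, 77.1% of plus-strand and 0% of minus-strand entries from 301 to 600 bp were missing. How far uncovered sites lowered the plus-strand means in the dip was not tested. The few CHG sites of the segment, which are symmetrical and depend on another methyltransferase, CMT3, dipped as well. In AGp Sterile replicate 1 the 8 CHG sites of the first 300 bp were at 49.9%, the 9 from 301 to 600 bp at 12.1% and the 20 beyond at 31.2%. In replicate 2 they were at 71.2%, 30.8% and 60.4%.

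**Figure D2:**
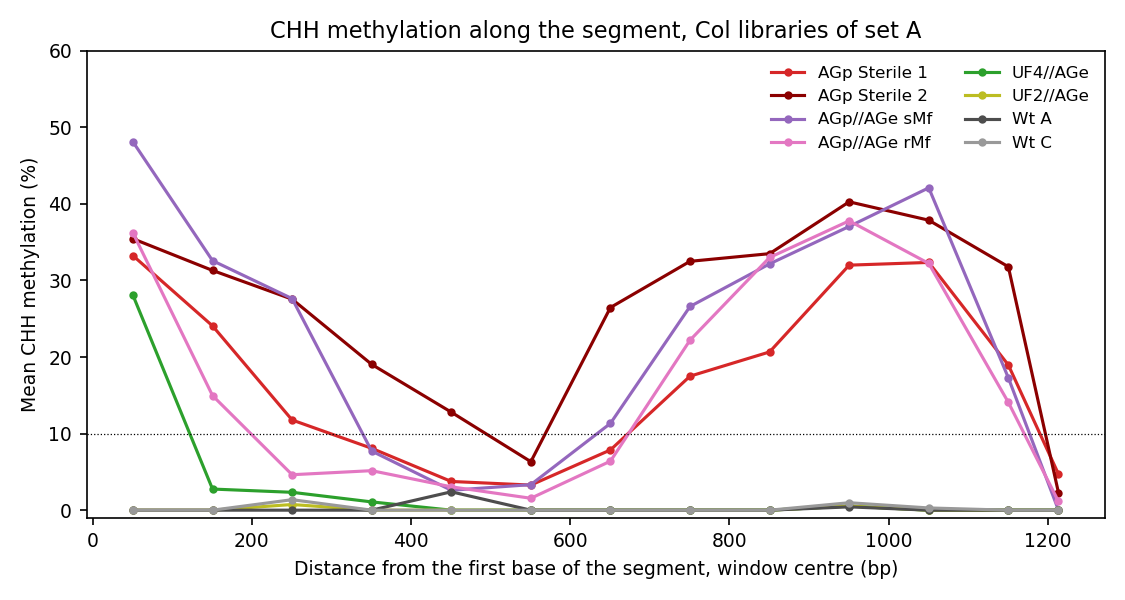
Mean CHH level (%) in windows of 100 bp against distance (bp) from the first base, for 8 Col libraries of set A, with a dotted line at 10%. The 4 AGp lines fall to between 1.56% and 6.33% at 501 to 600 bp and rise again, UF4//AGe falls from 28.1% to 2.76% after the first window, and UF2//AGe and Wt stay at or below 2.40%.

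Reach was taken as the end of the last window with a mean of at least 10%. It was 1200 bp in all 4 AGp libraries, which is the last full window of the segment. Counted as an unbroken run of such windows from the first base it was 300 and 500 bp in AGp Sterile, 300 bp in AGp//AGe sMf and 200 bp in AGp//AGe rMf, because the run stops at the dip. The count to the last window is limited by the segment's end, and the 3 sites beyond it averaged 14.5% in AGp Sterile. That end was selected on AGp//AGe sMf, so the reach of that library is a description only. UF4//AGe reached 100 bp by both counts. UF2//AGe reached 0 bp, with 2 of 278 sites above 0. Both UF libraries were methylated directly below the segment, where the mean CHH level over 1000 bp was 29.9% in UF2//AGe and 27.4% in UF4//AGe. The last window of UF2//AGe at 10% or more ended 200 bp before the first base, so its methylation stopped short of the segment while that of UF4//AGe ran into its first 100 bp.

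In plants with an allele, ARE//AGe libraries were methylated in the first 200 bp and little beyond. The first window had a median of 41.9% over the 9 libraries (33.8% to 51.5%) and the second 40.2% (29.4% to 43.1%). From 201 to 300 bp the median was 6.60% (4.22% to 16.3%), and in each later window it was at most 5.00%. All 9 libraries passed 10% in both first windows, 2 of them in each of the next windows to 400 bp, and reach was 200 bp in 6. In the 1000 bp below the segment these libraries stood at 27.6% to 37.2%, as high as the 20.6% to 36.0% of AGp Sterile.

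The exceptions came from Met1-1 and ddm1-1. Met1-1 sMf and rMf passed 10% from 201 to 300 bp, at 16.3% and 14.6%. Met1-1 sMf did so from 301 to 400 bp, at 23.4% over 5 sites, and Met1-1 rMf from 501 to 600 bp, at 10.5% over 4 sites. Both passed it again from 901 to 1000 bp, at 11.6% over 37 sites and 15.9% over 11 sites, which made their reach 1000 bp. The ddm1-1 rMf library reached 400 bp through a window at 17.8% that held 4 measured sites. The set B libraries that hold these alleles had more missing entries, 39 to 123 of 278 sites with ARE//AGe against 27 to 45 in set C. Missing entries of the 9 libraries lay mostly on the plus strand from 301 to 600 bp, where 77.1% were missing against 0% on the minus strand. The part of this gap in the window means was not tested.

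**Figure D3:**
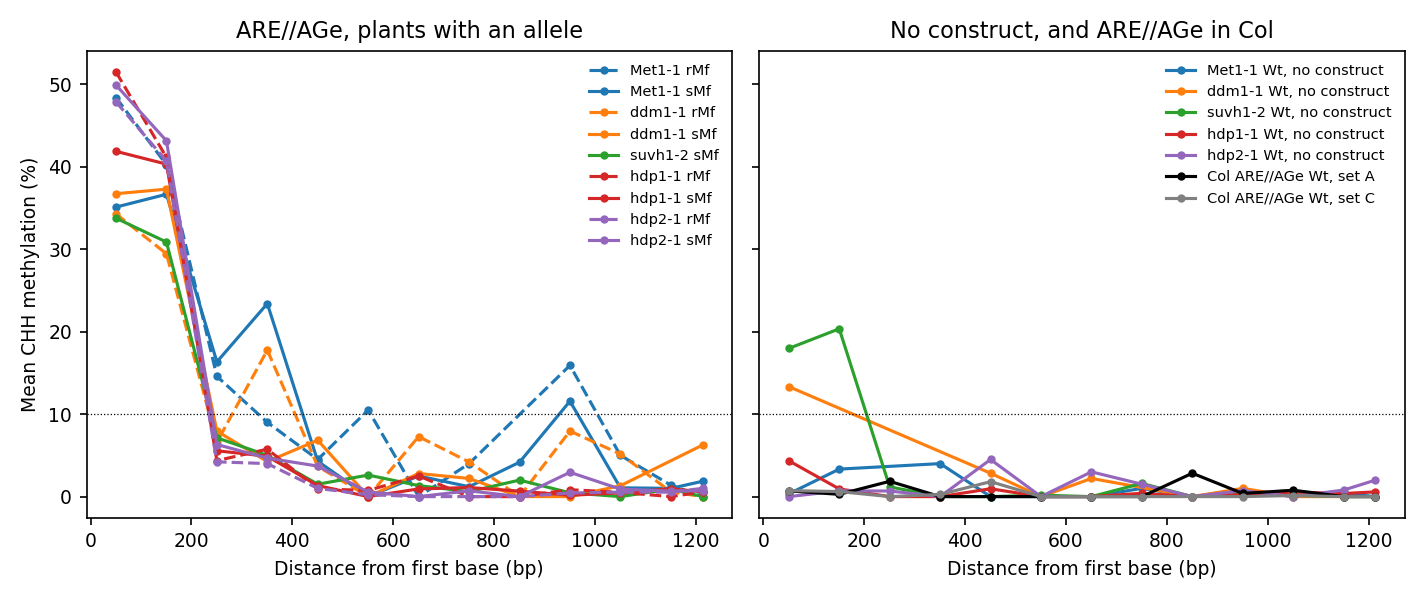
Mean CHH level (%) in windows of 100 bp against distance (bp) from the first base; left, the 9 ARE//AGe libraries of plants with an allele (solid sMf, dashed rMf), right, the no-construct Wt libraries of the same alleles and ARE//AGe in Col. Windows with under 3 measured sites have no marker and are bridged by a line. All 9 lines on the left lie above 29% to 200 bp and below 17% from 201 to 300 bp; on the right suvh1-2 Wt passes 10% in both first windows and ddm1-1 Wt, on 3 sites, in the first.

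Read site by site, the ARE//AGe profile declined gradually. On the minus strand the median over the 9 libraries was 66% at 10381724 (149 bp), 34% at 10381763 (188 bp) and 18% at 10381791 (216 bp). On the plus strand it was 47% at 10381718 (143 bp), 33% at 10381750 (175 bp), 18% at 10381772 (197 bp), 10% at 10381784 (209 bp) and 0% at 10381812 (237 bp). The decline had exceptions, since the plus-strand sites 10381815 (240 bp), 10381824 (249 bp) and 10381832 (257 bp) had medians of 22.5%, 20% and 20% over the 5 or 6 libraries that measured them. AGp Sterile had means of 45.0%, 16.5% and 19.0% at the same 3 minus-strand sites, and thus fell there too. At the 5 plus-strand sites from 143 to 237 bp it had means of 37.5%, 22.5%, 32.0%, 38.0% and 17.5%. AGp//AGe rMf stood lower on the plus strand, at 16%, 6%, 6%, 6% and 3%.

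The library suvh1-2 Wt, which carries no construct by its label, showed a sharper strand difference. From 101 to 200 bp its 16 minus-strand sites averaged 35.5% and its 13 plus-strand sites 1.69%. In the ARE//AGe libraries the same strands had medians of 41.4% and 32.3%, and suvh1-2 Wt passed 10% in both first windows. Of the other 4 no-construct libraries of plants with an allele, 3 stayed below 10% in both, and ddm1-1 Wt had 3 measured sites in the first and 0 in the second. Only 2 minus-strand sites lie from 201 to 300 bp, so the strands cannot be compared further. The 1000 bp below were at 17.9% in this library, against 7.18% in ddm1-1 Wt, 7.43% in hdp1-1 Wt, 2.97% in hdp2-1 Wt and 1.81% in Met1-1 Wt. This library has no replicate, and whether its reads came from a plant without construct was not tested. Neighbouring sites can share reads and depth is unknown, so its sites are not separate measurements.

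**Figure D4:**
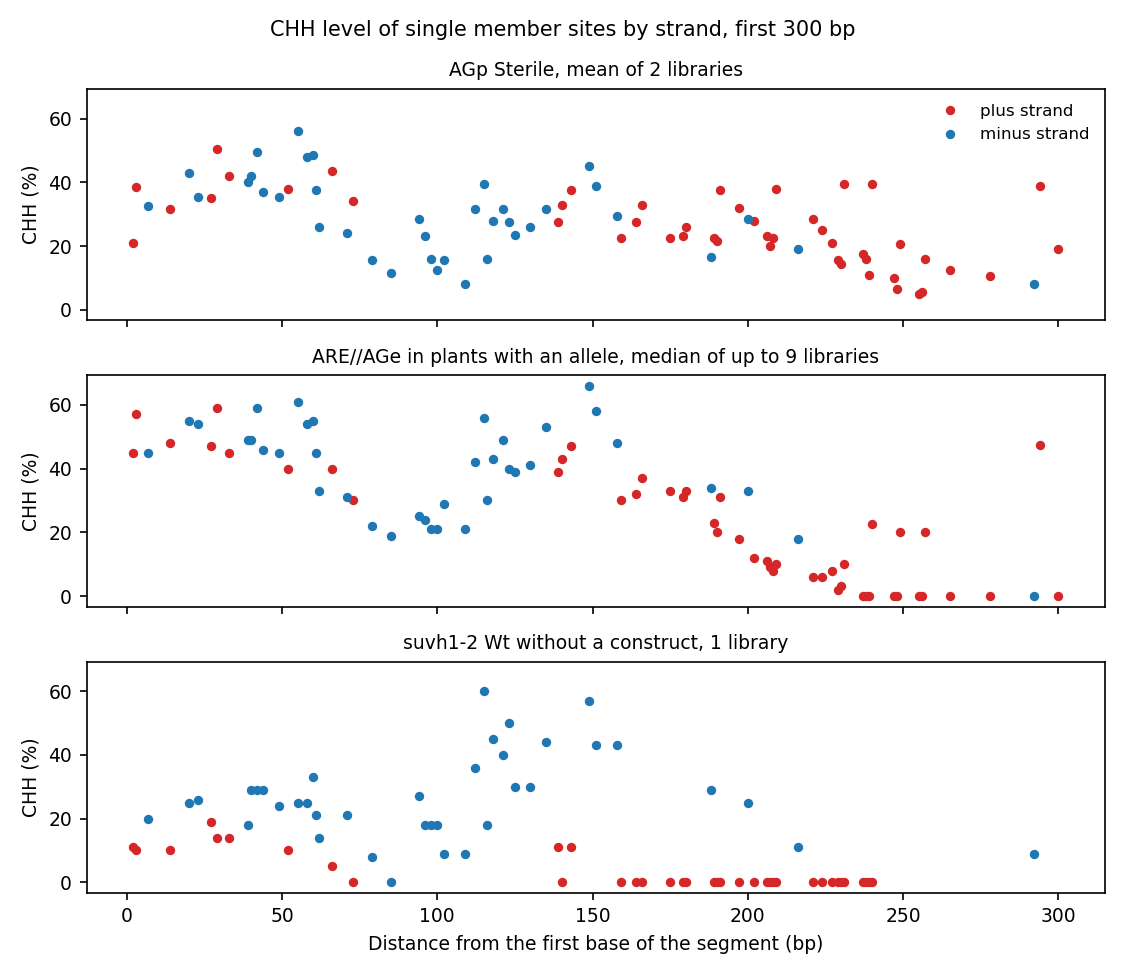
CHH level (%) of single sites in the first 300 bp against distance (bp) from the first base, plus strand in red and minus strand in blue, for AGp Sterile (mean of 2), ARE//AGe in plants with an allele (median of the libraries measured, as few as 2 beyond 237 bp) and suvh1-2 Wt. At 149 bp the minus-strand site stands at 45.0%, 66% and 57%, and at 175 bp the plus-strand site stands at 22.5%, 33% and 0%.

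Single cytosines were tested with limma on log2 odds, log2((p + 0.01)/(1 - p + 0.01)) with p the level as a fraction, and p-values were adjusted over the whole table by Benjamini and Hochberg. Where one group was listed at 0, the size of such a difference is set partly by the offset of 0.01. For AGp Sterile against Col Wt without a filter, limma called 227 of the 278 sites higher at an adjusted p under 0.05 and 0 lower, where 9.86% of all 4827 cytosines were called higher and 0.269% lower. The median difference was 4.87 over the sites and 0 over the table. With the filter that a cytosine be above 0 in at least 2 libraries, 240 sites remained and 230 were called higher, where 21.6% of 2249 cytosines were called higher and 0.667% lower. A site listed at 0 outside AGp could pass this filter only through the AGp libraries, so the second count is a description. Without AGp Sterile replicate 1 or 2 it was 82 or 70, of 95 or 94 sites that then passed, and without the filter 228 or 217 of 278. Without the filter, called sites lay in every window. They took 83 of 85 sites in the first 300 bp, 13 of 38 in the dip from 401 to 600 bp and 115 of 130 from 601 bp on. The mean levels were 23.9% ± 6.32 (SD, n = 2) in AGp Sterile and 0.263% ± 0.0458 (n = 2) in Wt, and did not overlap. The difference was 19.2 percentage points between the libraries of column block 1 of the table and 28.1 between those of block 2. Construct and flower phenotype, Sterile against Wt, cannot be told apart in this comparison.

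The sites with the largest gain lay in both blocks of the profile. These sites were taken from the fit with the filter, so their p-values are a description. CHH 10381630, on the minus strand 55 bp into the segment, was at 60% and 52% in AGp Sterile and at 0% in both Wt libraries (limma with the filter, log2 odds difference 7.0 ± 0.816 SE, adjusted p = 1.77e-06). It was at 33% in UF4//AGe, at 0% in UF2//AGe and between 40% and 67% in the 9 ARE//AGe libraries, with a median of 61%. The AGp Sterile and Wt levels did not overlap. Of libraries with a lower first window, it was at 25% in suvh1-2 Wt, at 17% in Col AGe rMf replicate A and at 7% in hdp1-1 Wt.

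The other 4 lay in the second block, about 1000 bp in. CHH 10382595 was at 54% and 57%, CHH 10382551 at 55% in both, CHH 10382564 at 51% and 54% and CHH 10382575 at 44% and 57% in AGp Sterile. All were at 0% in both Wt libraries (limma with the filter, adjusted p = 4.55e-05, 9.93e-06, 2.74e-06 and 0.00314). In AGp//AGe rMf they stood at 44% to 50%, and 10382551 was also at a mean of 12.5% in Col AGe rMf. In ARE//AGe of plants with an allele the median was 0% at each, with highest values of 8%, 20%, 12% and 75%. The called site with the highest coordinate was CHH 10382780, 1205 bp in, at 33% and 6% in AGp Sterile and 0% in Wt (limma with the filter, adjusted p = 2.9e-06). Its p-value is a description too, and the site was also called without the filter. It was at 0% in both AGp//AGe libraries and in the 7 ARE//AGe libraries that measured it.

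ARE//AGe against no construct was fitted within the 5 alleles, a comparison added after the data were seen. Without a filter limma called 66 of 217 tested sites higher and 0 lower, where 20.7% of 4709 cytosines were called higher and 0.0212% lower. With the filter it called 68 of 136 sites higher and 0 lower, where 40.8% of 2538 cytosines were called higher and 0.355% lower. Sites low without construct passed this filter mainly through the ARE//AGe libraries, so the second count is a description. Without the filter the calls took 58 of 58 tested sites in the first 200 bp, 7 of 16 from 201 to 300 bp and 1 of 143 beyond, where 193 sites lie. The late one was 10381921 at 346 bp, named after its values were seen. In the fit with the filter, the difference at CHH 10381630 was 5.29 ± 0.905 SE (limma adjusted p = 0.000641). At CHH 10382551 it was 0.418 ± 0.999 SE (limma adjusted p = 0.792). These values are a description, as is the count with the filter.

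The number of calls with the filter depended on which no-construct libraries could be tested. It was 43 without suvh1-2, 43 without its Wt library alone and 44 without hdp2-1 Wt, where 99, 103 and 102 sites could be tested, because fewer sites then had the 3 measured no-construct libraries required. The mean level was higher with ARE//AGe than without construct in each allele, by 16.9 percentage points in Met1-1, 12.4 in ddm1-1, 10.9 in hdp1-1, 11.2 in hdp2-1 and 4.15 in suvh1-2. These means cover the sites each library measured, which were not the same sites. Met1-1 Wt measured 189 of 278 sites, and ddm1-1 Wt 70, few of them in the first 200 bp. With ARE//AGe, Met1-1 measured 239 (sMf) and 155 (rMf) and ddm1-1 170 (sMf) and 195 (rMf). In the alleles that have a control construct, Ctr//AGe rMf stood at 1.62% (Met1-1) and 2.90% (ddm1-1), with 75 and 190 of 278 sites missing. ARE//AGe with the same rMf phenotype stood at 21.5% and 13.0%. All these ARE//AGe libraries came from sMf or rMf flowers and the no-construct libraries from Wt flowers, so construct and flower phenotype cannot be told apart in that comparison. The sMf libraries differed from the rMf libraries of the same allele by -8.02 percentage points in Met1-1, 1.21 in ddm1-1, -1.52 in hdp1-1 and 0.608 in hdp2-1, which gave no common direction. In Met1-1 the sMf library measured 239 sites and the rMf library 155, so that difference compares means over unlike sites.

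ARE//AGe of plants with an allele was also fitted against 3 AGp-labelled Col libraries, the AGp Sterile pair and AGp//AGe rMf. This comparison too was added after the data were seen. Without a filter limma called 105 of 229 tested sites lower and 5 higher, where 2.71% of 4766 cytosines were called lower and 8.96% higher. With the filter it called 122 of 223 sites lower and 6 higher, where 6.94% of 2334 cytosines were called lower and 30.4% higher. Sites at 0 in ARE//AGe passed the filter through the AGp libraries, so the second count is a description. Without the filter the median log2 odds difference was -2.83 over the sites and 0.264 over the table.

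The calls without the filter differed along the segment. The 5 called higher lay between 125 and 188 bp, among 58 tested in the first 200 bp, a share near the 8.96% of the whole table. The sites called lower lay between 442 and 1164 bp, and took 101 of 130 tested sites from 601 to 1226 bp. In the fit with the filter, CHH 10382595 differed by -6.34 ± 0.737 SE (limma adjusted p = 0.000139). CHH 10381630 differed there by 0.260 ± 0.451 SE (limma adjusted p = 0.629). Sites at 0 in ARE//AGe passed that filter through the AGp libraries, so these values are a description. AGp libraries were Col in set A, and ARE//AGe libraries with methylation carried an allele in sets B and C, in other column blocks. The AGp libraries came from Sterile or rMf flowers and the ARE//AGe libraries from sMf or rMf flowers. Construct, allele, set and flower phenotype therefore cannot be told apart in this fit.

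**Figure D5:**
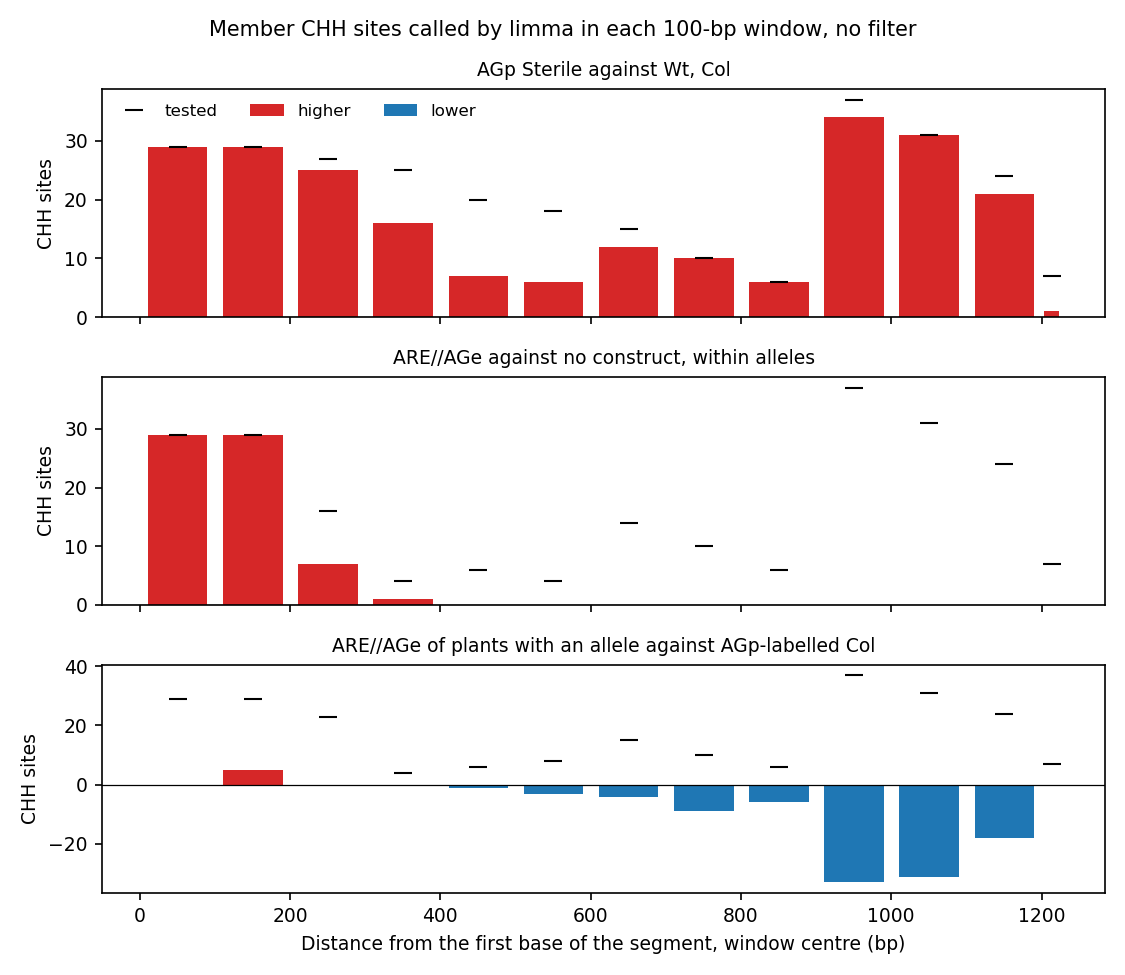
Number of sites called higher (red, above 0) or lower (blue, below 0) by limma without a filter in each window of 100 bp, against distance (bp) from the first base; black dashes mark the sites tested. AGp Sterile calls take 13 of 38 sites from 401 to 600 bp, ARE//AGe calls against no construct take all 58 tested sites of the first 200 bp and 1 beyond 300 bp, and ARE//AGe was called below AGp at 101 of 130 tested sites after 600 bp.

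AGe alone left the segment near the level of Wt. For Col AGe rMf against Col Wt limma called 6 of 240 sites higher and 1 lower, where 29.2% of all tested cytosines were called higher and 0.622% lower, and without the filter 0 in either direction, where 11% and 0.228% were. Leaving out rMf replicate B gave 18 sites higher and replicate A 2, while leaving out Wt replicate A or C gave 0 higher and 4 or 2 lower. The site called lower, 10382016, was at 0% in rMf and at a mean of 15% in Wt (limma adjusted p = 0.04995). Of the 6 called higher, 4 lay in the first 200 bp, and their levels came mainly from replicate A, which stood at 7.97% in the first window against 0% in replicate B. For M317 AGe rMf against M317 Wt limma called 0 sites higher and 1 lower, where 24.5% and 0.489% were called, and the same numbers without the filter, where 10.2% and 0.145% were. That site, 10382606, named after its values were seen, was at 0% in rMf and at a mean of 8.33% in Wt (limma with the filter, adjusted p = 0.00948). Leaving out 1 library gave 5 calls without Wt replicate A, 2 without rMf replicate A and 0 without Wt replicate B or C. For M318 AGe rMf against M318 Wt limma called 0 in either direction, where 26.6% and 0.622% were called, and 0 without the filter, where 11.6% and 0.186% were. With either, 0 sites had an unadjusted p under 0.05. Leaving out M318 AGe rMf replicate A, B or C gave 5, 7 or 8 sites called higher, and leaving out Wt replicate A or C gave 2 called lower. The window of M318 AGe rMf replicate A from 801 to 900 bp, at 12.5% over 6 sites, was the only window of the 27 libraries without AGp, UF or ARE to pass 10%.

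Levels differed by the base after the cytosine, read from neighbouring listed cytosines. In the first 300 bp, sites followed by C were lower on average than sites followed by A or T in each of the 15 libraries whose segment mean was at least 3%. In hdp1-1 ARE//AGe rMf the 23 sites before C averaged 21.7% and the 60 others 38.3%, and in AGp Sterile replicate 1 the values were 14.9% and 26.4%. Over the whole segment the order held in 14 of the 15 libraries, at 28.05% and 28.88% in AGp Sterile replicate 2. The exception was AGp//AGe sMf, at 26.0% and 25.8%. Sites were not matched for position, and levels fell within the first 300 bp, so next base and position were not told apart. As a description over sites that share libraries, levels of the 2 AGp Sterile libraries correlated with Pearson's r = 0.791 (278 sites), those of hdp1-1 and hdp2-1 ARE//AGe rMf with r = 0.980 (220 sites), and those of AGp Sterile replicate 2 and hdp1-1 ARE//AGe rMf with r = 0.148 (234 sites). In the first 300 bp these were 0.622, 0.967 and 0.432, and after it 0.839, 0.186 and -0.0986.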

How the data were processed

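The authors deposited methylation levels as signed whole percent values, in which the sign marks the strand, per the file headers and the values. Tools listed in the submitters' processing notes, without roles, are FastQC 0.11.9, HISAT2 and Bismark, and the build is TAIR10. The sources used here give no read counts, coverage minimum or conversion rate, so no interval was computed. Absolute values were used. Entries rc, which occur in sets B and C, and blanks were treated as missing, and a 0 in set A may be an uncovered cytosine. In column blocks 2 to 5 rows had slipped against coordinates, and the sign matched the strand at 54.5% to 65.7% of rows. A hidden Markov model of the signs (displacement up to 40 rows, least posterior 0.9) raised this to 99.93% to 100% and kept 90.7% to 94.1% of rows. It was tested on simulated data. Pearson's r between the AGp Sterile libraries was 0.656 as deposited, over cytosines with a coordinate of their own. Realigned it was 0.811 over the 4827 cytosines placed in all columns, so the rows compared differ.

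Levels were averaged over sites with equal weight, in windows of 100 bp with at least 3 measured sites. Single cytosines were fitted with limma 3.58.1 (R 4.3.3, trended variance). The set A fit held 9 groups with replicates, 23 libraries in all, whose shared variance rests mostly on libraries at 0. Library pools may share lines, so p-values measure only the spread between these pools. The ARE//AGe fits, added after the data were seen, required 5 measured ARE//AGe libraries and 3 without construct or 2 with AGp. Members, segment and lists were chosen with earlier results of these data known, so the planned permutation tests over segment means and reach are not reported. Named sites are those called in AGp Sterile against Wt with the filter. They are the 5 with the largest gain and no overlap, the one with the highest coordinate, and any called lower (0 were). Other sites were named after their values were seen. No pair of libraries held identical values. M318 AGe sMf replicate A stood apart from replicates B and C of its group. It stood at 0.343% against 6.23% and 4.88% over CHH outside the segment and the 1000 bp below it. This library entered the limma fits only through the shared variance, and counts among the 14 libraries with AGe alone in the ranges given. Python 3.11.15, numpy 2.4.6 and pandas 2.3.3 were used.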

Additional observations from a re-analysis of the deposited data

How the results depend on the processing

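Differences in mean level kept their direction under every alternative run, except for sMf minus rMf. For AGp Sterile minus Wt the difference was 23.7 percentage points (19.2 to 28.1 leaving out 1 library), for AGp-labelled minus Col Wt and AGe rMf 21.5 (18.3 to 23.4), for ARE//AGe minus no construct 11.1 (9.66 to 12.8) and for ARE//AGe minus Ctr//AGe 13.3 (10.7 to 15.9). The last was 17.5 over sites above 0 in a library of the same column block and 9.31 with rc as 0. The sMf minus rMf difference was -1.93, between -2.98 and 0.0993 leaving out 1 library, and reversed without either Met1-1 library. The ARE//AGe differences compare means over the sites each library measured, which were not the same sites. Reach was 1200 bp longer with AGp than in the Wt and AGe rMf libraries of Col in set A, 1175 and 1133 bp with thresholds of 5% and 20%, 1187.5 bp with windows of 50 bp and 333 bp as an unbroken run. For ARE//AGe it was 320 bp longer than without construct (150 to 400 leaving out 1 library) and 650 bp longer than with Ctr//AGe (300 to 1000). With thresholds of 5% and 20% and as an unbroken run these were 583, 180 and 170 bp, and 456, 250 and 275 bp. Windows beyond the segment were not counted, so its length limits every reach.

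The 230 AGp Sterile calls were 7 with the filter of 5 libraries above 0, which few sites pass, and 70 and 82 without AGp Sterile replicate 2 or 1, where only sites above 0 in another library pass. Without the filter they were 217 and 228 with the same library left out, and leaving out 1 library gave 70 to 228 in all. The 7 Col AGe rMf calls were 0 with rows as deposited and with no filter, 1 with the stricter filter and with the compared groups alone, 4 with an offset of 0.05 and 2 to 18 leaving out 1 library. The M317 count of 1 was 0 with the stricter filter and the compared groups alone and 0 to 5 leaving out 1 library, and the M318 count of 0 was 0 to 8. With the compared groups alone and a replicate block on the letters A to C both counts were 0, but only 2 and 0 sites passed the filter. With no filter, a fit added after the data were seen, both were 0 of 278 with the block and 0 without it. The letters did not pair the libraries (r from -0.0636 to 0.105; 4 of 12 libraries correlated best with their own letter), and AGp Sterile titles carry none. The 68 ARE//AGe calls against no construct were 43 to 70 and the 128 against AGp 111 to 136 leaving out 1 library. Depth is unknown, so no precision could be given for single levels.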

Other observations

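Of the 37 CHG sites, those measured averaged 30.6% and 55.5% in AGp Sterile, 12.4% to 29.8% in the 9 ARE//AGe libraries of plants with an allele, 3.81% in UF4//AGe, 5.24% in suvh1-2 Wt and at most 2.46% in the 27 libraries of Col, M317 or M318 without AGp, UF or ARE. The ARE//AGe libraries measured 23 to 36 of them. The 12 CpG sites averaged 27.2% and 43.5% in AGp Sterile. The ARE//AGe libraries measured 8 to 12 CpG sites, so means over all 12 are not comparable. Over the 6 CpG sites of the first 300 bp, the means were 32.2% and 56.7% in AGp Sterile and 17.8% to 53.7% in ARE//AGe, with a median of 42.5%. In the first 300 bp the 8 CHG sites had a median of 59.4% over the ARE//AGe libraries (48.1% to 75.5%), and from 601 to 1226 bp the 20 CHG sites had a median of 1.2% and a highest value of 9.05%.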
